A study of Danio rerio with 6 samples.

Results

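In RNA-seq of zebrafish offspring of copper-exposed and unexposed parents, 258 of 57761 transcripts were on or off in a single parental group of a stage. They were chosen by their values: among the 3 libraries of a stage, 1 group lay below 0.1 FPKM and both others at 5 FPKM or more (off), or 1 group lay at 5 FPKM or more and both others below 0.1 FPKM (on). FPKM counts fragments per kilobase of transcript, scaled by the library's fragments, as the authors deposited it. The libraries came from pools of 50 to 60 whole F1 embryos of wild-type AB fish, lysed at 24 or 96 hours post fertilization (hpf). The parents, 3 months old, had been kept for more than 21 days in normal water (control) or in water with copper at 0.078 µM (5 µg/L) or 0.156 µM (10 µg/L). All embryos, those of the copper groups included, grew in water without added copper. The design text of the series says that embryos were picked by phenotype, so parental copper and that selection cannot be told apart. Each of the 6 combinations of parental group and stage is 1 library, so no difference below has a replicate error and none was tested. Fewer cells of a type and less RNA per cell cannot be told apart in whole embryos. That text also names 3 biological repetitions per group, and no source used here says how they relate to the single library.

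A gene can give rise to several transcripts that share exons, and an FPKM per transcript depends on how shared fragments are divided among them. Embryos begin with RNA laid down by the mother and later transcribe their own genome, so that both stages studied here lie in the period of the embryo's own transcription. Copper is a cofactor of enzymes of respiration and of defence against superoxide, and is toxic in excess. The libraries of the other stage took no part in choosing a transcript, so the state there is described for every class. Of the 57761 transcript IDs, 0 could be paired with a gene through the tables used here, so no gene name, position or sequence is given and the lists of copper and methylation genes were not used.

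By class, control was off in 19 and on in 22 transcripts at 24 hpf, 0.078 µM was off in 19 and on in 21, and 0.156 µM was off in 27 and on in 35. At 96 hpf control was off in 8 and on in 40, 0.078 µM was off in 12 and on in 24, and 0.156 µM was off in 29 and on in 25. These are 281 memberships, since 23 transcripts met the rule at both stages. Control held 89 of the memberships, 0.078 µM held 76 and 0.156 µM held 116. Many states were held by a single library of the 6. There were 92 transcripts (35.7%) at 5 FPKM or more in 1 library and below 0.1 FPKM in the other 5, and 42 (16.3%) the other way round, at 5 FPKM or more in 5 libraries and below 0.1 FPKM in 1. Of all 258, 67 were listed at exactly 0 in 5 of the 6 libraries. The 92 were on in control in 13 cases at 24 hpf and 23 at 96 hpf, in 0.078 µM in 11 and 8, and in 0.156 µM in 19 and 18. The 42 were off in control in 3 cases at either stage, in 0.078 µM in 7 at 24 hpf and 2 at 96 hpf, and in 0.156 µM in 13 and 14.

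**Figure D1:**
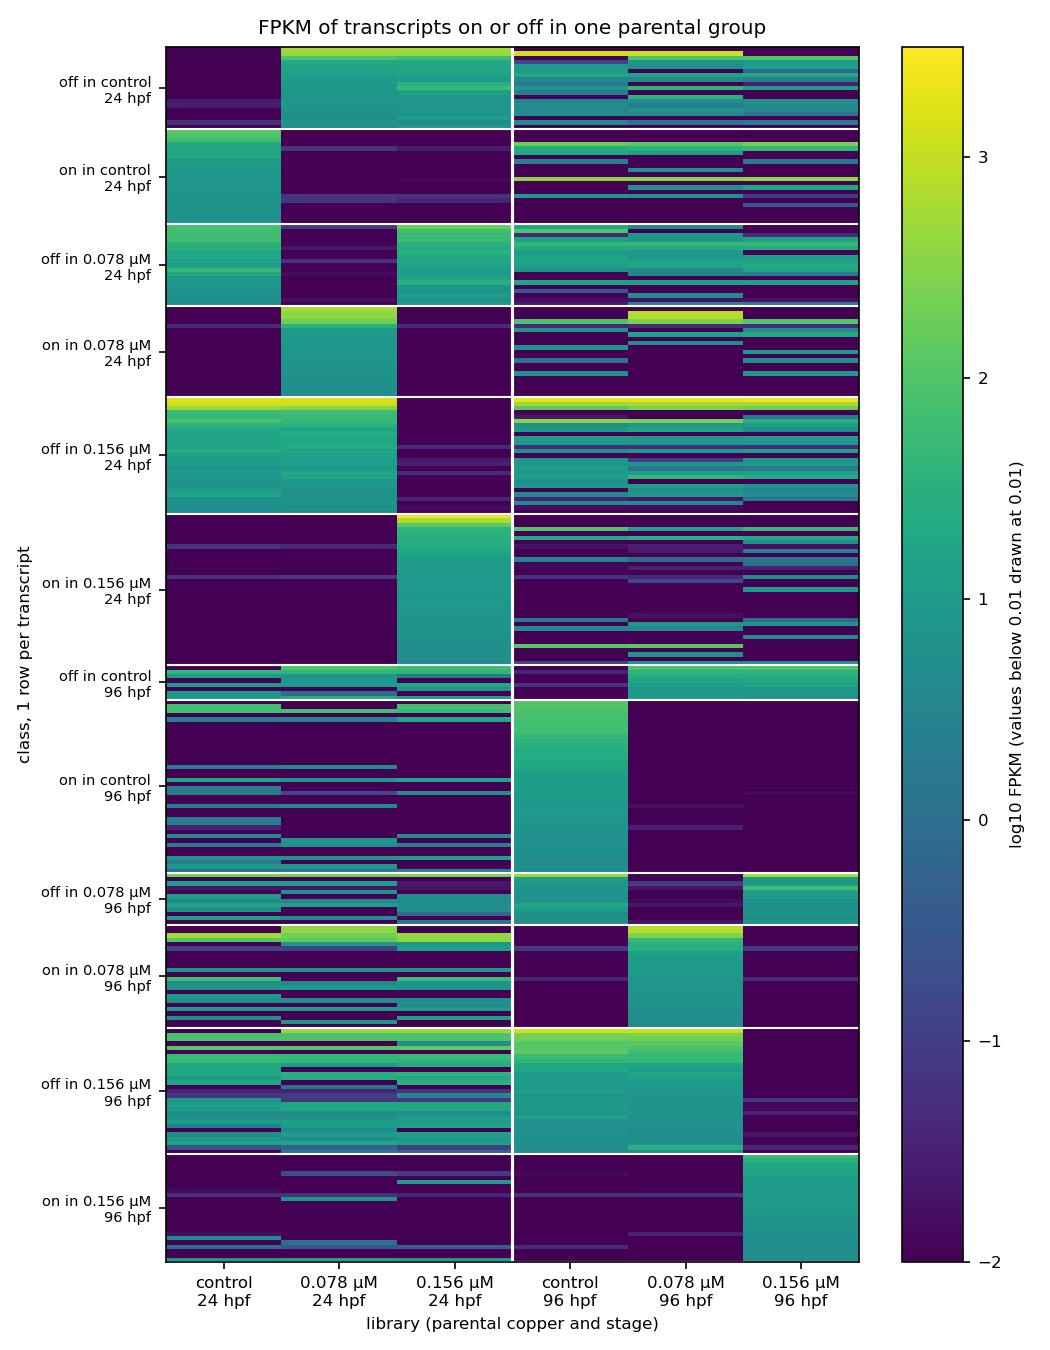
FPKM on a log10 colour scale for each membership (rows, grouped by class and sorted by level) in the 6 libraries (columns), with values below 0.01 drawn at 0.01. Left and right of the white line the same rows show both stages: the pattern that chose a row is seldom repeated across the line, and most rows of the on classes are dark there.

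In 155 of the 281 memberships the lowest on value lay below 10 FPKM, and in 23 it reached 100 FPKM. Class medians of the lowest on value ranged from 6.06 FPKM for transcripts off in 0.078 µM at 96 hpf to 14.4 FPKM for those off in 0.156 µM at 24 hpf. The median of all values of 5 FPKM or more in a library was 10.8 to 12.4 FPKM. That is a median of single values, while an off class takes the lower of its on values, so these are not alike. The on classes have 1 on value per transcript, and their medians were 8.23 to 11.6 FPKM. Of the 448 values that counted as off, 255 (56.9%) were listed at exactly 0, 33.3% in the off classes and 65.0% in the on classes. A listed 0 can be a failed estimate and is not read as absence. Off values above 0 included some as small as 2.86e-177 FPKM, in ENSDART00000115751 in control at 24 hpf. A value above 0 is therefore not read as detection. The total depth is unknown, sums of FPKM over a library were 476499 to 562987, and between 11.8% and 14.2% of all transcripts of a library were listed at 0. That share covers transcripts at all levels, so it is no background for the 56.9% of the off values.

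Many on values were not unique within their library. Of 604 values of 5 FPKM or more that these transcripts held in any library, 111 (18.4%) were identical, to the 6 significant digits deposited, to the value of another transcript in the same library. Over all transcripts the share was 1.96% of 69370 values. It was also larger within each range of level, at 23.0% against 1.39% for values from 5 to 10 FPKM, 19.5% against 4.08% from 10 to 20, 7.32% against 0.856% from 20 to 50, and 14.3% against 0.490% from 50 upward. In all 6 libraries the share was 15.2% to 23.2%, against 1.5% to 2.27% for all transcripts. Of the 92 transcripts on in 1 library alone, 28 had such a shared on value, and of the 42 off in 1 library alone, 13 shared at least 1 of their on values. These counts are not alike, since each of the 42 has more on values that could be shared. Neither was set beside a share over all transcripts. Equal numbers of fragments on transcripts of equal length can give such ties. The cause of the ties and their part in the on and off states were not tested.

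**Figure D2:**
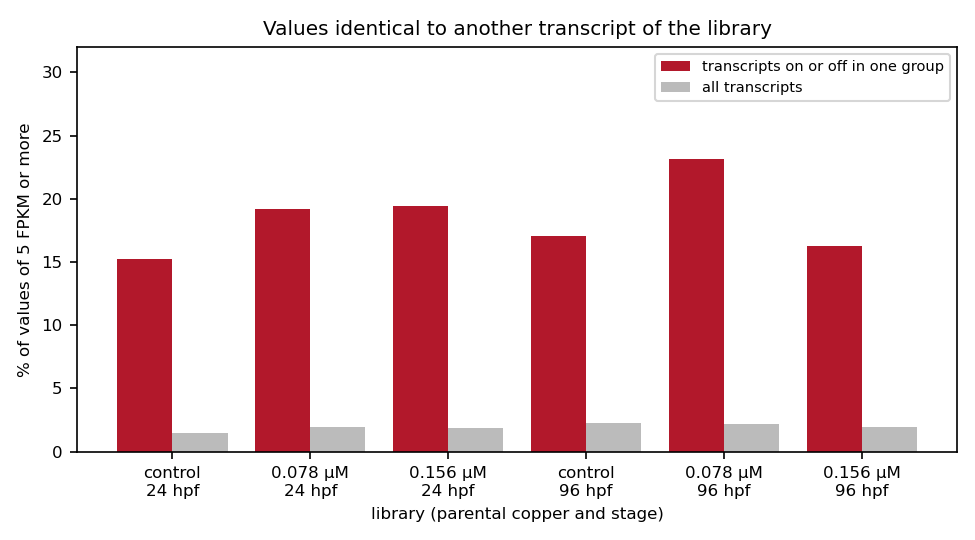
Percent of values of 5 FPKM or more that are identical to the value of another transcript in the same library, for each of the 6 libraries. The bars of transcripts on or off in one parental group reach 15.2% to 23.2%, and those of all transcripts 1.5% to 2.27%.

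Some levels stood in whole-number ratios. ENSDART00000134594 had 0, 405 and 424 FPKM in control, 0.078 µM and 0.156 µM at 24 hpf, and 1259.6, 1108 and 0 FPKM at 96 hpf. In the 3 libraries where both were above 0, its values were 2, 1 and 4 times those of ENSDART00000158206, which had 582, 202 and 424 FPKM at 24 hpf and 0, 277 and 0 FPKM at 96 hpf. The multiples hold to a relative tolerance of 5e-05. In ENSDART00000115747 the values of 7.98, 16.5 and 41.8 FPKM in control at 24 hpf and in 0.078 µM at 24 and 96 hpf were 1, 2 and 4 times those of ENSDART00000121134. The same search found 4 such pairs among the 258 transcripts, and these IDs were chosen after their values were seen. The search was not run over all transcripts, so this count has no background.

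In control offspring at 24 hpf, the 19 transcripts that were off (0.159% of the 11947 transcripts that reached 5 FPKM in any library of that stage) mostly did not stay off in control alone. Values of a transcript are given below in the order control, 0.078 µM, 0.156 µM. ENSDART00000005191 stood at 0.00869, 86.1 and 62.4 FPKM at 24 hpf and at 0.00874, 87.0 and 103 FPKM at 96 hpf. It was the sole transcript with control off at both stages, all 4 copper libraries lay at 62.4 FPKM or more, and none of its values was shared with another transcript. ENSDART00000161132 stood at 0, 561 and 588 FPKM at 24 hpf and was listed at 0 in all 3 libraries at 96 hpf. At 96 hpf the control library itself was below 0.1 FPKM in 5 of the 19 and at 5 FPKM or more in 7. The 0.078 µM library was below 0.1 FPKM in 6 of them and the 0.156 µM library in 7, so control was not below 0.1 FPKM more often than the others. At least 2-fold lower in control than in both other groups, on the log2(FPKM + 1) scale, were 2 of the 19 at 96 hpf, against 0.569% of all 11947 transcripts, and 3 were at least 2-fold higher.

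Of the 22 transcripts on in control at 24 hpf (0.184% of 11947), 13 were below 0.1 FPKM in the other 5 libraries, 10 of them listed at 0 in all 5. ENSDART00000116945 had 119 FPKM in control at 24 hpf and was listed at 0 in the other 5 libraries, and ENSDART00000118878 had 96.3 FPKM and was listed at 0 in the other 5. At 96 hpf all 3 libraries were below 0.1 FPKM for 13 of the 22, and all 3 were at 5 FPKM or more for 3. Such counts over all 3 libraries, here and below, were not set beside a share over all transcripts. None of the 22 was at least 2-fold higher in control than in both copper groups at 96 hpf, where 0.427% of all transcripts were, and 1 was at least 2-fold lower.

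At 96 hpf control was off in 8 transcripts, 0.0600% of the 13327 that reached 5 FPKM at that stage. Beside ENSDART00000005191 it held ENSDART00000132135, with 43.9, 42.2 and 39.1 FPKM at 24 hpf and 0.0364, 38.0 and 37.6 FPKM at 96 hpf. The other 5 libraries of this transcript lay within 37.6 to 43.9 FPKM and the control library of 96 hpf stood alone. At 24 hpf, 1 of the 8 was at least 2-fold lower in control than in both copper groups (0.435% of all 13327) and 1 was at least 2-fold higher.

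The 40 transcripts on in control at 96 hpf (0.300% of 13327) included 8 that were above 0 in all 3 libraries of that stage. ENSDART00000115522 had 108 FPKM in control at 96 hpf and was listed at 0 elsewhere. ENSDART00000116893 had 66.9, 0 and 72.8 FPKM at 24 hpf and 108, 0 and 0 FPKM at 96 hpf, so its state went from off in 0.078 µM to on in control. Both transcripts had the same value in control at 96 hpf to 6 digits. At 24 hpf all 3 libraries were below 0.1 FPKM for 23 of the 40, and 4 were at least 2-fold higher in control than in both copper groups, against 0.405% of all transcripts, with 0 in the opposite direction. Those 4, chosen here after their values were seen, stood at 2.002 to 2.17 FPKM in control at 24 hpf and at 5.24 to 11.3 FPKM in control at 96 hpf, and at 0.00463 FPKM or less in all copper libraries. They are ENSDART00000127972, ENSDART00000130771, ENSDART00000160359 and ENSDART00000165146, and they did not meet the rule at 24 hpf because their control value was under 5 FPKM.

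With parents at 0.078 µM, 19 transcripts were off at 24 hpf (0.159% of 11947). ENSDART00000165486 stood at 77.4, 0.0880 and 181 FPKM at 24 hpf and at 19.3, 3.64 and 0.000984 FPKM at 96 hpf, where the lowest group was 0.156 µM instead. At 96 hpf the 0.078 µM library was at 5 FPKM or more for 10 of the 19, control for 11 and 0.156 µM for 8. None of the 19 was at least 2-fold lower than both other groups at 96 hpf (0.444% of all transcripts), and 2 were at least 2-fold higher. At 96 hpf 12 transcripts were off in 0.078 µM (0.0900% of 13327). ENSDART00000135036 stood at 218, 199 and 247 FPKM at 24 hpf and at 428, 0.00601 and 581 FPKM at 96 hpf. ENSDART00000118481 had 11.98, 0 and 9.92 FPKM at 96 hpf and was listed at 0 in the libraries of 24 hpf, and both of its values were shared with other transcripts. At 24 hpf 2 of the 12 were at least 2-fold lower in 0.078 µM than in both other groups (0.563% of all transcripts), and 1 was at least 2-fold higher.

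Of the 21 transcripts on in 0.078 µM at 24 hpf (0.176% of 11947) and the 24 at 96 hpf (0.180% of 13327), 3 were in both classes. ENSDART00000126174 and ENSDART00000130285 had 375 FPKM in 0.078 µM at 24 hpf, 766 FPKM in 0.078 µM at 96 hpf and 0 in the 4 libraries of the other groups, with identical values in every library. These IDs cannot be told apart by their values, and whether they carry the same measurement was not tested. The third, ENSDART00000115558, had 8.34 FPKM at 24 hpf and 5.07 FPKM at 96 hpf in 0.078 µM and 0 in the other 4 libraries, and its value at 96 hpf was shared with another transcript. Of the 21, 4 were at least 2-fold higher in 0.078 µM than in both other groups at 96 hpf (0.419% of all transcripts) and 3 were at least 2-fold lower. Of the 24, 3 were at least 2-fold higher at 24 hpf (0.270% of all transcripts) and 3 were at least 2-fold lower. At the other stage all 3 libraries were below 0.1 FPKM for 11 of the 21 and 8 of the 24.

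With parents at 0.156 µM, 27 transcripts were off at 24 hpf (0.226% of 11947), among them the most abundant transcripts of any off class. ENSDART00000059366 stood at 1644, 1379 and 0 FPKM at 24 hpf and at 2098, 2102 and 2457 FPKM at 96 hpf. ENSDART00000122904 stood at 1293, 1272 and 0 FPKM at 24 hpf and at 472, 560.2 and 562 FPKM at 96 hpf. In both, the other 5 libraries were high and the library of 0.156 µM at 24 hpf alone was listed at 0. All 3 libraries of 96 hpf were at 5 FPKM or more for 13 of the 27. At least 2-fold lower in 0.156 µM than in both other groups at 96 hpf were 2 of the 27 (0.787% of all transcripts), and 2 were at least 2-fold higher. The 29 transcripts off at 96 hpf (0.218% of 13327) included a transcript already described. ENSDART00000134594, given above, was the most abundant, and ENSDART00000091307 stood at 83.9, 92.0 and 96.3 FPKM at 24 hpf and at 229, 269 and 0 FPKM at 96 hpf. All 3 libraries of 24 hpf were at 5 FPKM or more for 14 of the 29. None of the 29 was at least 2-fold lower in 0.156 µM at 24 hpf (0.563% of all transcripts), and 2 were at least 2-fold higher.

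On in 0.156 µM were 35 transcripts at 24 hpf (0.293% of 11947) and 25 at 96 hpf (0.188% of 13327), and 1 was in both classes. That transcript, ENSDART00000118525, had 9.06 FPKM at 24 hpf and 10.5 FPKM at 96 hpf in 0.156 µM and 0 in the other 4 libraries. Both of its values were shared, with 3 other transcripts at 24 hpf and 2 others at 96 hpf. ENSDART00000117152 had 2359 FPKM in 0.156 µM at 24 hpf, the highest level of any on class, and was listed at 0 in the other 5 libraries. ENSDART00000119652 had 55.1 FPKM in 0.156 µM at 96 hpf and was listed at 0 in the other 5. All 3 libraries of the other stage were below 0.1 FPKM for 19 of the 35 and 18 of the 25. Of the 35, 6 were at least 2-fold higher in 0.156 µM than in both other groups at 96 hpf, against 0.352% of all transcripts, with 2 lower. Of the 25, 1 was at least 2-fold higher at 24 hpf (0.435% of all transcripts) and 0 were lower. Among the 6, ENSDART00000147690 had 26.4 FPKM at 24 hpf and 4.04 FPKM at 96 hpf in 0.156 µM, and ENSDART00000146480 had 9.12 and 4.93 FPKM. Both had 0.0836 FPKM or less in the libraries of the other groups and were chosen after their values were seen.

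**Figure D3:**
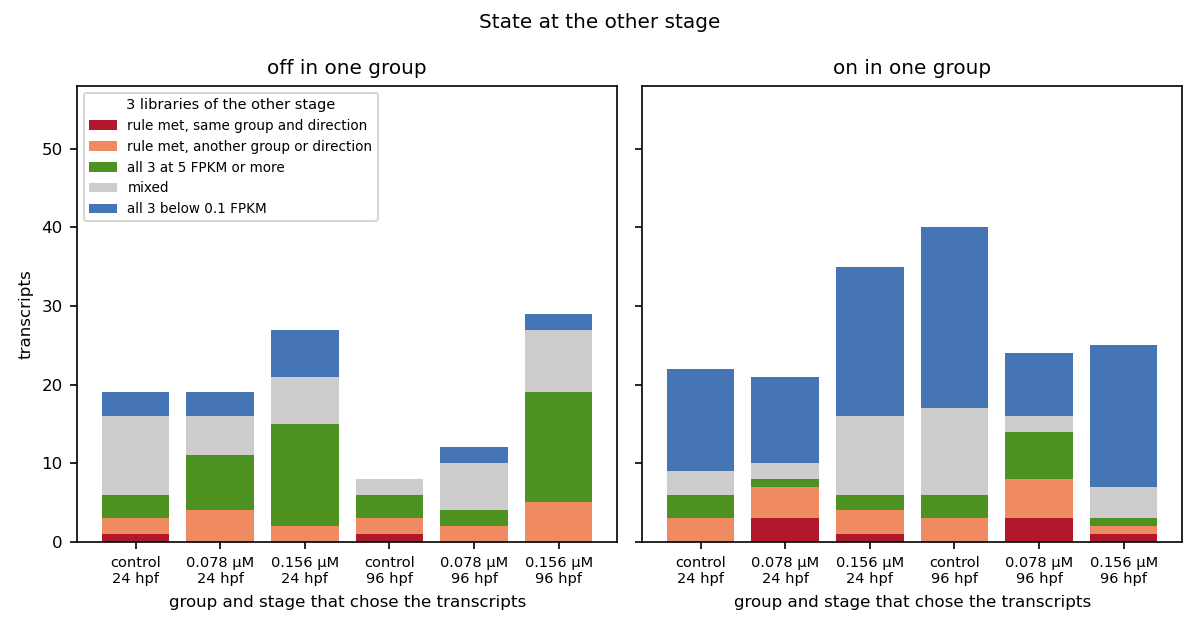
Number of transcripts of each class (bars, by the group and stage that chose them) according to the 3 libraries of the other stage. Of the off classes 42 of 114 memberships were at 5 FPKM or more in all 3 libraries there, of the on classes 92 of 167 were below 0.1 FPKM in all 3, and the dark red segments mark the kept states, 5 at each stage. The counts of 42 and 92 were not set beside a share over all transcripts.

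Persistence was the exception in every group and direction. In total 5 of the 258 transcripts kept their state at both stages in the same group. They were 1 off in control, 3 on in 0.078 µM, 1 on in 0.156 µM and 0 in the other 3 combinations. These 5 stood among 143 transcripts chosen at 24 hpf and 138 chosen at 96 hpf. Over all transcripts that reached 5 FPKM at a stage, 0.0600% to 0.300% met the rule in a given class. A kept state was thus rare among the chosen transcripts, yet its share was larger than that of any class over all transcripts. The 5 include the pair with identical values, and the difference was not tested. At the stage that did not choose a membership, the group's own library was below 0.1 FPKM in 28.9% of the off memberships, and the libraries of the other groups in 32.9%. It was at 5 FPKM or more in 51.8% of the off memberships, and so were the libraries of the other groups. For the on classes the group's own library was at 5 FPKM or more in 19.2%, and the others in 19.5%. It was below 0.1 FPKM in 67.7% of the on memberships, and the others in 72.8%. At the other stage, then, the group that had been set apart was on about as often as the groups that had not. With stages and groups pooled, it was below 0.1 FPKM somewhat less often than they were, in the off and the on classes. Memberships off at 96 hpf went the other way, at 30.6% for the group and 27.6% for the others. For off in control both shares were 29.6%, and for on in 0.078 µM both were 62.2%. These differences were not tested. With a 2-fold difference in place of the rule, 25 of 281 memberships (8.90%) pointed the same way at the other stage and 20 (7.12%) the opposite way. Over all transcripts that reached 5 FPKM at the choosing stage, a given group was at least 2-fold apart from both others in a given direction at the other stage in 0.270% to 0.787% of them. The same-way count was larger in the on classes, 18 of 167 against 9 opposite, and smaller in the off classes, 7 of 114 against 11 opposite. The 5 kept transcripts count at both stages, as 10 of the 25 memberships, 8 of the 18 and 2 of the 7. The 4 transcripts set apart in opposite directions in the same group also count at both stages, in 1 on class and 1 off class each.

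**Figure D4:**
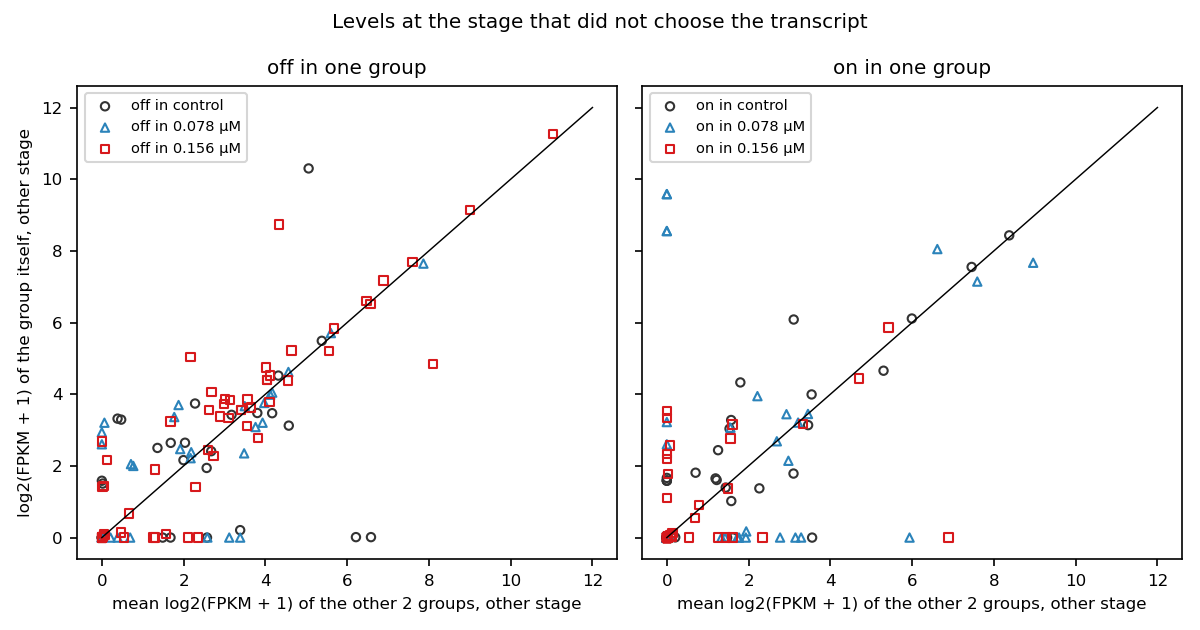
Levels of each membership at the stage that did not choose it: log2(FPKM + 1) of the group itself (vertical) against the mean of the other 2 groups (horizontal), for off classes (left) and on classes (right), with the line of equality. Many points with a level above 0 lie near the line, and most on-class points lie at the origin.

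Transcripts that met the rule at 1 stage did meet it again more often than transcripts at large, but not mainly in the same group. Of the 143 transcripts chosen at 24 hpf, 23 (16.1%) met the rule in some class at 96 hpf, against 0.544% of the 11947 that reached 5 FPKM at 24 hpf. Those 23 were 16.7% of the 138 chosen at 96 hpf, against 0.503% of 13327 for the reverse. The same 23 were 5 in the same group and direction, 4 in the same group and the opposite direction, 7 in another group and the same direction, and 7 in another group and the opposite direction. Per pair of classes this is 0.833, 0.667, 0.583 and 0.583 transcripts, over 6, 6, 12 and 12 pairs. With identical profiles counted once, a setting added after seeing the data, 4 were in the same group and direction. That is 0.667 per pair, equal to the same group and the opposite direction. ENSDART00000066579, off and then on in 0.078 µM, stood at 65.7, 0 and 55.2 FPKM at 24 hpf and at 0.0427, 8.22 and 0.0470 FPKM at 96 hpf. Each of its values of 5 FPKM or more was shared with ENSDART00000171396. That transcript had 14.2 and 14.4 FPKM in control and 0.156 µM at 96 hpf, so it was not on in 0.078 µM alone. ENSDART00000145457 was on in 0.156 µM at 24 hpf with 5.42 FPKM and below 0.1 FPKM in the others, and off in 0.156 µM at 96 hpf, where control and 0.078 µM had 110.0 and 125 FPKM. These transcripts changed sides between the stages within a parental group.

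**Figure D5:**
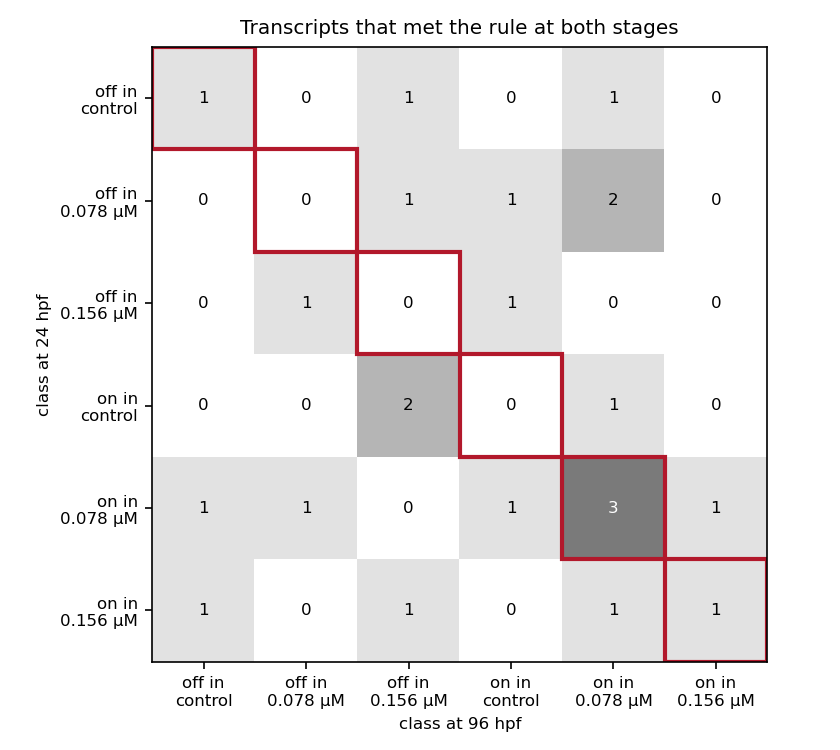
Number of transcripts for each class at 24 hpf (rows) and at 96 hpf (columns) among the 23 that met the rule at both stages. The outlined diagonal, same group and direction, holds 5, of which 3 are on in 0.078 µM, and the cells off the diagonal hold 18.

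The balance between the same group and other classes depended on the limits. Another class includes the same group in the opposite direction. With on from 2 FPKM, 691 transcripts met the rule, and no share over all transcripts was taken at this limit. Of them 29 kept their state in the same group, 4.83 per pair of classes, against 59 in another class, 1.97 per pair. Of the 59, 12 were in the same group and the opposite direction, 2 per pair. In another group 26 were in the same direction and 21 in the opposite, 2.17 and 1.75 per pair. The 29 were 2 off and 8 on in control, 3 off and 4 on in 0.078 µM, and 4 off and 8 on in 0.156 µM, or 10, 7 and 12 by group. The 8 on in control lay near the limit, at 2.002 to 2.99 FPKM in control at 24 hpf. All of these 8 but ENSDART00000118895 were at 2.29 FPKM or less there. Among the 29, 16 are members of the 258 and 13 are not. In 15 of the 29 every off library was listed at 0, and 11 were above 0 in all 6 libraries. With on from 10 FPKM, 3 kept states were left, ENSDART00000005191 and the pair with identical values, 0.50 per pair of classes, against 3 in another class, 0.10 per pair. Of those in another class, 0 were in the same group and the opposite direction. With transcripts listed at 0 left out, 1 state was kept, 0.167 per pair, against 7 in another class, 0.233 per pair. Of the 7, 3 were in the same group and the opposite direction, 0.5 per pair. In another group 2 were in the same direction and 2 in the opposite, 0.167 per pair each. Without values shared with another transcript, a setting chosen after seeing the data, 1 was kept, 0.167 per pair, against 8 in another class, 0.267 per pair. Of the 8, 3 were in the same group and the opposite direction, 0.5 per pair. In another group 1 was in the same direction and 4 in the opposite, 0.0833 and 0.333 per pair. Under each setting that left 1 kept state, that state was off in control, and 0 were kept in 0.078 µM and 0.156 µM.

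Some of the 258 transcripts had features in common, and the rule did not use the ID number. In 63 (24.4%) the number in the Ensembl ID lay between 110000 and 119999, the fullest bin of 10000 numbers among them and picked after seeing the data, against 5.08% of all transcripts and 4.38% of the 15550 that reached 5 FPKM in any library. The share was 32.3% of the on memberships and 15.8% of the off memberships, and 38.0% of the 92 transcripts on in 1 library and below 0.1 FPKM in 5. What these IDs have in common is not given in the files. Identical values in all 6 libraries were found in 18 transcripts (6.98%), which form 8 sets, against 0.270% of the 15550 that reached 5 FPKM. The rule can favour such matches, since it asks for values below 0.1 FPKM and 56.9% of the off values were listed at 0. This was not tested. ENSDART00000082450 and ENSDART00000124088 matched with values above 0 in all 6 libraries. ENSDART00000161028 and ENSDART00000161721 matched with a listed 0 only in 0.156 µM at 24 hpf. The other sets were listed at 0 in most libraries. Whether the transcripts of a set are separate observations cannot be told from the values. At the thresholds, the lowest on value inside the rule was 5.00 FPKM, in ENSDART00000140347 at 96 hpf, and the highest outside was 4.98 FPKM, in ENSDART00000150132. The highest off value inside was 0.0903 FPKM, in ENSDART00000055279, and the lowest outside was 0.111 FPKM, in ENSDART00000159294.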

How the data were processed

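The data are 6 libraries of whole zebrafish embryos, grouped by the titles of the samples. FPKM values per annotated transcript were deposited by the authors. The submitters' processing notes list Cufflinks 2.1.1, TopHat2 and Trimmomatic but no settings, and no source used here gives the genome build, the annotation or how libraries were scaled. Each file lists 58002 identifiers. The 241 gene IDs were left out, and 0 of them met the rule. Total depth is unknown, so no interval for counting error is given.

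From these FPKM values the rule was applied per stage with Python 3.11.15 and pandas 2.3.3, and the 3 libraries of the other stage were then described. Differences of 2-fold are on the log2(FPKM + 1) scale, a pseudocount of 1 that understates changes of low transcripts. The state at the other stage was taken in this order: rule met in the same class, rule met in another class, all 3 libraries below 0.1 FPKM, all 3 at 5 FPKM or more, the remainder. With 1 library per group and stage no test was run. Background shares count transcripts that reached 5 FPKM in any library of the choosing stage. At most 2 transcripts per class are named by rule: those with the state kept at both stages, then those with the highest on level, and in addition those nearest the thresholds and up to 2 per kind that met the rule in different classes. The calling step was checked on values drawn from the control libraries with added error, with known states planted in transcripts well above the on limit. No state was planted near the limits or at a listed 0, so that check does not cover such values. Alternatives were other limits for on and off, other scalings, pseudocounts and folds, and the removal of values at 0. The transcripts, the rule and the lists were chosen with earlier results of these data known.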

Additional observations from a re-analysis of the deposited data

Results flagged for a closer look

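In 4 transcripts a parental group was set apart in opposite directions at the 2 stages, untested as the stages have 1 library per group each. Values are log2(FPKM + 1) of the group minus the mean of the other groups. For 0.078 µM, ENSDART00000066579 was at -5.94 at 24 hpf and 3.14 at 96 hpf, and ENSDART00000132092 was at -3.28 and 2.60. ENSDART00000160947 was at 2.94 at 24 hpf and -3.14 at 96 hpf in the same group. For 0.156 µM, ENSDART00000145457 was at 2.68 at 24 hpf and -6.89 at 96 hpf. The on values of ENSDART00000066579 were all shared with another transcript of the library.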

How the results depend on the processing

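The number of transcripts on or off in a single group, 258, became 691 with on from 2 FPKM, 120 with on from 10 FPKM, 122 with transcripts listed at 0 left out and 498 with libraries rescaled to a sum of 1000000, which raises every value. The kept states, 5, became 29, 3, 1 and 15 in the same order, and the transcripts in another class at the other stage, 18, became 59, 3, 7 and 32. Off limits of 0.01 and 0.5 FPKM, quantile normalization and median ratio scaling moved none of the 3 numbers by over 1.5 times. In alternatives added after seeing the data, 1 kept state and 8 in another class were left without values shared with another transcript, and 3 and 11 without the transcript numbers of 110000 to 119999. With identical profiles counted once they were 4 and 18. The count at least 2-fold apart in the same direction at the other stage, 25, became 13 with a pseudocount of 5, and lay within 1.5 times under every other alternative run for it. Of 139 further counts by class and setting, 89 lay within 1.5 times of the main count. The cause of these moves was not tested. No paired analysis was possible because the labels give no replicate numbers that groups share and the results come from no test. A fit with parental group and stage as terms was not run, since its values chose the transcripts.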
